A study of Homo sapiens with 24 samples.

Results

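Transcripts were compared between day 6 and day 3 in KARPAS-422 cells kept in DMSO, the vehicle of the study's inhibitor, and the comparison asks which changes seen in the vehicle cultures by day 3 were gone by day 6. The 3 DMSO arrays of day 6 were set against the 3 DMSO arrays of day 3, out of 24 arrays in all. All 19775 genes with a probe set of a single gene symbol were used, each by 1 probe set, the one with the highest mean over the 24 arrays. KARPAS-422 is an established human lymphoma line (diffuse large B-cell type), and every group carries the EZH2 genotype Y641N. The other DMSO groups were taken at days 1 and 2, and the treated groups received an EZH2 inhibitor at 5 uM for 1, 2, 3 or 6 days, with 3 replicates per group that the design text calls biological. A single line was used, and no untreated cells stand beside the DMSO cultures. When the medium was changed or the cells were diluted is not given in the sources used here, so time in DMSO and time since the last feeding cannot be told apart.

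Cells that run short of an amino acid stop general translation and instead translate ATF4, a transcription factor that switches on genes for amino acid synthesis, uptake and tRNA charging. Cells that run short of sterol release SREBP transcription factors from the endoplasmic reticulum, and these switch on genes for cholesterol and fatty acid synthesis. Both programmes answer to what the medium supplies. Immediate early genes, interferon-stimulated genes and genes of ribosome biogenesis also follow signals and growth rate.

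The promoters of 2 ATF4 targets show the kind of element through which the amino acid programme works, and both genes are described among the results. The sequence is RefSeq's (GRCh38.p14), 5′ to 3′ on the gene's strand, and capitals mark the match to TGATGNAA, searched on both strands of the 250 bases before and 50 after each gene's start.
CHAC1: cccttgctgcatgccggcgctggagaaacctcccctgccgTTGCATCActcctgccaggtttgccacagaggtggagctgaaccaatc
ASNS: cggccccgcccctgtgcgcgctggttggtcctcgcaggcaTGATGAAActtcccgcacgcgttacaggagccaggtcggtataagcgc
The CHAC1 stretch is chr15:40953222-40953309 on the plus strand, with the match on the opposite strand beginning 209 bases before the gene's start. The ASNS stretch is chr7:97872429-97872516 on the minus strand, with the match 68 bases before the start. Counted by gene, such a match occurred in 6 of 23 genes of the amino acid response list (26.1%) and 5 of 13 of the transporter list (38.5%). Over all 27305 genes with a promoter sequence the share was 4.46%. A match is a run of letters and was not shown to be a site in these cells.

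The DMSO cultures of day 6 and day 3 were close to each other. Of the 19775 genes, 0 were called, that is, 0% had a 2-sided p from limma, with Benjamini-Hochberg adjustment across the whole table, under 0.05. The smallest adjusted p was 0.712, for IL9R, a cytokine receptor subunit. IL9R was 0.45 ± 0.09 higher at day 6 (log2 difference ± SE, n = 3 arrays per day, here and below). Each SE is limma's and uses the spread within groups pooled over all arrays of the series, not that of the arrays compared alone. Without adjustment 882 genes (4.46%) had a limma p under 0.05, fewer than the 989 expected if no gene changed. The middle of the distribution was narrow, with a median difference of 0.013, a median size of 0.07 and 5th and 95th percentiles of -0.182 and 0.184. For 19718 genes (99.7%) the whole 95% interval of the difference lay within a 2-fold change in either direction. In the amino acid response list described below, this held for 22 of 30 measured genes, so larger differences stay possible there. These intervals use the same pooled spread, so they bound what could have been missed only where days 3 and 6 spread like the other groups. In the amino acid response genes, where day 3 replicate 1 stood apart, these intervals may be too narrow and the SEs too small. A p above the threshold does not show that a gene's level was equal.

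**Figure D1:**
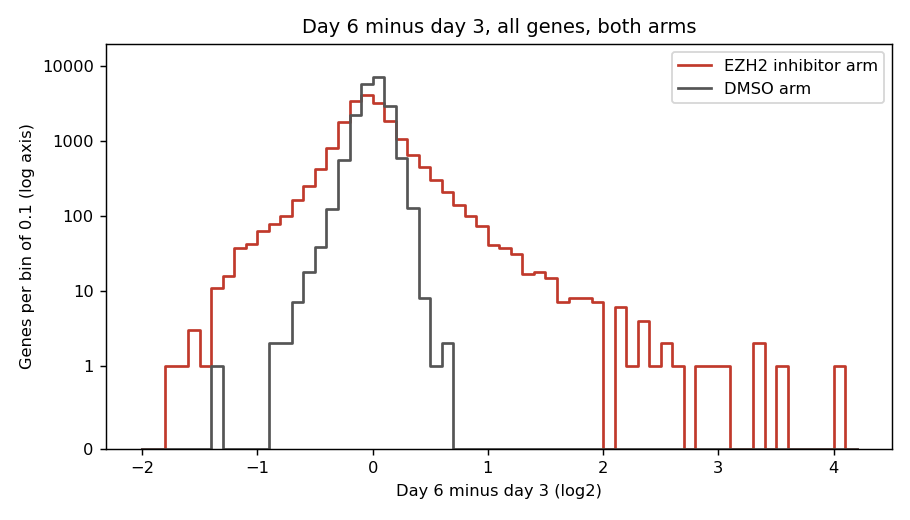
Number of genes (log axis) per bin of 0.1 in the log2 difference between day 6 and day 3, for the DMSO arm (grey) and the EZH2 inhibitor arm (red), 3 arrays per group and 19775 genes in each. The DMSO differences stay near 0, with 33 genes at 0.5 or more in size, and the inhibitor differences spread wider on both sides.

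Other intervals of the DMSO course gave calls. Between day 1 and day 3, by the same fit, 75 genes were higher (0.379%) and 15 lower (0.0759%), 17 of them at least 2-fold higher. When replicate number was blocked the counts were 205 and 66, while 13 genes in all were called without DMSO day 3 replicate 2, 25 without replicate 3 and 231 without replicate 1. Leaving out DMSO day 1 replicates 1, 2 and 3 in turn gave 27, 41 and 36. Between day 1 and day 6, 47 were higher (0.238%) and 10 lower (0.0506%), or 139 and 60 with the block. Without day 6 replicates 1, 2 and 3 in turn the count was 23, 36 and 30, and without day 1 replicates 1 and 3 it was 25 and 33. These 3 comparisons share arrays in pairs, so their values stand side by side below and are not evidence for each other. Day 3 values that chance put high or low enter the comparison with day 1 and the comparison with day 6 with opposite signs. Of the 20 genes named from the comparison of day 3 with day 1, 3 kept that call whichever single array was left out, and the other 17 lost it without at least 1 array. In a fit limited to the 12 DMSO arrays, CA8, OLMALINC, TLR7, L3MBTL4 and INSIG1 kept the call and the rest of the 20 lost it.

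More of the small differences were positive than negative. The 3 day 6 arrays all lay above the 3 day 3 arrays in 1039 genes (5.25%) and all below in 685 (3.46%). Such a separation has an exact permutation p of 0.1, so it is common among genes without any change. The difference was above 0 in 55.2% of genes, with the median over all genes at 0.013. Sizes of 0.5 or more occurred in 33 genes and of 1 or more in 1, INHBE. IL9R had 5.65, 5.85 and 5.63 at day 3 and 6.09, 6.24 and 6.16 at day 6. All day 6 arrays lay above all day 3 arrays, yet the other probe sets of the gene gave differences down to 0.015. ZNF536, a zinc finger gene chosen after its values were seen, had 5.77, 5.78 and 5.79 at day 3 and 5.42, 5.30 and 5.40 at day 6, a difference of -0.41 ± 0.09. Its groups did not overlap and it was not called.

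In the genes of the amino acid response, day 3 replicate 1 stood apart from day 3 replicates 2 and 3, and the day 6 arrays lay between them. Of 30 measured genes of the list, 0 passed the test between day 6 and day 3, 25 had negative and 5 positive differences, and the median was -0.25 (all genes 0.013). Measured from the mean of DMSO day 1, the median member stood at 0.006, 0.864 and 0.591 in day 3 replicates 1, 2 and 3. The same median was 0.324, 0.297 and 0.184 in the day 6 arrays. At day 2 the medians were -0.007, 0.095 and 0.042. The list was written from general knowledge of ATF4 targets with earlier results of these data known.

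ATF4 itself, which drives the programme, had 11.54, 12.96 and 12.63 at day 3 and 12.34, 12.33 and 12.28 at day 6. The day 6 arrays sat close together between the lowest and the other day 3 arrays, with a difference of -0.06 ± 0.22 (95% interval -0.52 to 0.41). Against day 1 the transcript was 1.01 ± 0.22 higher at day 3 (adjusted p = 0.0444) and 0.95 ± 0.22 at day 6, where it was not called (adjusted p = 0.0838). Because ATF4 is also controlled by translation, its transcript need not follow its targets.

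CHAC1, which degrades glutathione, had 5.21, 8.70 and 8.30 at day 3 and 7.02, 6.92 and 6.33 at day 6. Replicate 1 of day 3 was the lowest of the 6 and the other day 3 arrays the highest, so the groups overlapped, with a difference of -0.64 ± 0.51. INHBE, an inhibin beta subunit and known stress-induced gene that is not on the list and was chosen after its values were seen, had 3.34, 7.01 and 5.94 at day 3 and 4.65, 4.04 and 3.53 at day 6. Its -1.36 ± 0.51 was the largest difference of all genes, and again day 3 replicate 1 was the lowest array. The SE of CHAC1 and that of INHBE are pooled over the groups and may be too small for their wide day 3 spread.

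SESN2, which restrains mTORC1 when leucine is short, had 6.48, 8.95 and 8.30 at day 3 and 7.55, 7.16 and 6.73 at day 6. The pattern was that of CHAC1, with a difference of -0.77 ± 0.36. Against day 1 it was 1.65 ± 0.36 higher at day 3 (adjusted p = 0.0435, and up to 0.383 with an array left out) and 0.88 ± 0.36 at day 6 (adjusted p = 0.484). CEBPB, a transcription factor that partners ATF4, had 8.94, 11.13 and 10.64 at day 3 and 9.98, 9.72 and 9.06 at day 6. Here too all day 6 arrays lay between replicate 1 and the other day 3 arrays, and the difference was -0.65 ± 0.33. It was 1.48 ± 0.33 higher at day 3 than at day 1 (adjusted p = 0.0435, up to 0.391 with an array left out) and 0.83 ± 0.33 at day 6 (adjusted p = 0.45).

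The synthesis enzymes behaved alike. ASNS, which makes asparagine, had 11.01, 13.02 and 12.60 at day 3 and 12.15, 11.66 and 11.47 at day 6, a difference of -0.45 ± 0.30. PSAT1, of serine synthesis, had 10.16, 11.99 and 11.49 at day 3 and 11.01, 10.62 and 10.41 at day 6, a difference of -0.53 ± 0.26. In both genes every day 6 array lay between day 3 replicate 1 and the other day 3 arrays. CTH, which makes cysteine, had 8.34, 10.25 and 9.35 at day 3 and 9.03, 8.69 and 8.31 at day 6, a difference of -0.64 ± 0.28. Its day 6 replicate 3 was level with day 3 replicate 1. CTH was 1.32 ± 0.28 higher at day 3 than at day 1 (adjusted p = 0.0345, up to 0.222 with an array left out) and 0.68 ± 0.28 at day 6 (adjusted p = 0.471).

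**Figure D2:**
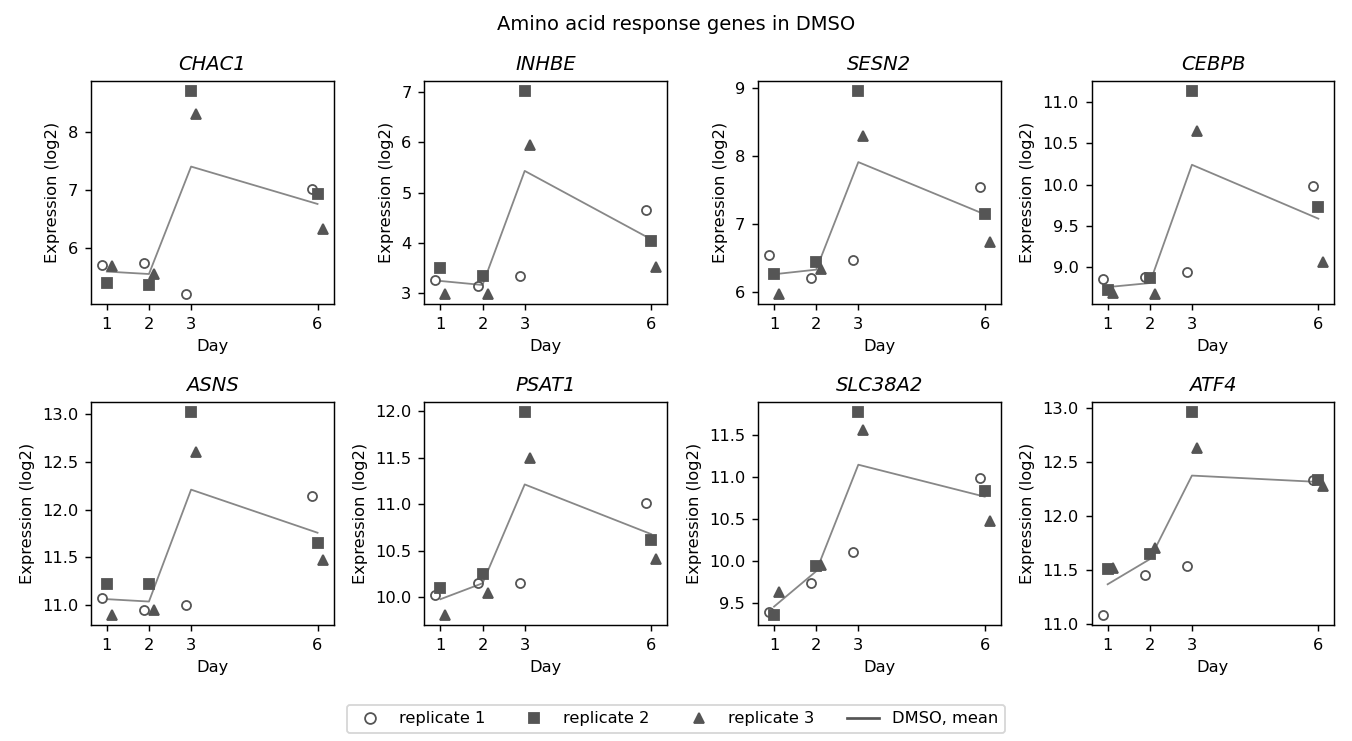
Log2 expression of 8 amino acid response genes in each DMSO array against day, with open circles for replicate 1, squares for replicate 2, triangles for replicate 3 and a line through the group means. Day 3 replicate 1 is the lowest day 3 array in all 8 panels, and the day 6 arrays lie mostly between it and the other day 3 arrays.

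The stress factors of the programme were less uniform. ATF5, a further ATF4 target, had 8.67, 10.76 and 10.13 at day 3 and 9.69, 9.13 and 8.93 at day 6, although its other probe sets gave differences up to -0.003. DDIT4, an inhibitor of mTORC1, had 10.64, 12.09 and 11.60 at day 3 and 10.97, 10.99 and 10.41 at day 6, so that 1 day 6 array lay below all of day 3. DDIT3, the CHOP factor of prolonged stress, had 7.92, 9.95 and 9.09 at day 3 and 8.72, 8.69 and 8.41 at day 6. In DDIT3 the difference of -0.37 ± 0.27 came with all day 6 arrays inside the range of day 3. CCPG1, a receptor of selective autophagy of the endoplasmic reticulum, is not on the list and was chosen after its values were seen, and had 5.49, 6.56 and 6.20 at day 3 and 5.53, 5.21 and 5.34 at day 6. Its day 6 arrays lay within or below the range of day 1 (5.34 to 5.57), and the difference was -0.72 ± 0.19.

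Amino acid transporters, which sit downstream of ATF4, gave 0 calls among 14 measured genes, with 9 negative and 5 positive differences and a median of -0.16. SLC38A2, a sodium-coupled carrier of neutral amino acids, had 10.11, 11.77 and 11.56 at day 3 and 10.99, 10.83 and 10.48 at day 6. All 3 day 6 arrays were above every array of day 1 (9.36 to 9.63), and the difference from day 3 was -0.38 ± 0.26. It was 1.69 ± 0.26 higher than day 1 at day 3 (adjusted p = 0.00306) and 1.31 ± 0.26 at day 6 (adjusted p = 0.0239), so this increase was still measured at day 6. In the fit limited to the 12 DMSO arrays the call at day 3 was lost (adjusted p = 0.0689). SLC43A1, a carrier of large neutral amino acids, had 8.53, 9.88 and 9.41 at day 3 and 9.02, 8.70 and 8.67 at day 6, a difference of -0.47 ± 0.19. Against day 1 it was 0.86 ± 0.19 higher at day 3 (adjusted p = 0.0435) and 0.38 ± 0.19 at day 6 (adjusted p = 0.594). In SLC43A1 too the day 6 arrays lay between day 3 replicate 1 and the other day 3 arrays.

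The cytosolic aminoacyl-tRNA synthetases, which charge tRNAs and include known ATF4 targets, gave 0 calls among 17, with 11 negative differences and a median of -0.14. WARS1, for tryptophan, had 9.43, 10.59 and 10.19 at day 3 and 9.77, 9.55 and 9.65 at day 6. CARS1, for cysteine, had 10.21, 11.35 and 11.11 at day 3 and 10.79, 10.44 and 10.51 at day 6. Both had all day 6 arrays between day 3 replicate 1 and the rest. KARS1, for lysine had 12.70, 12.64 and 12.61 at day 3 and 12.74, 12.63 and 12.66 at day 6, with no array apart. Among 24 genes of endoplasmic reticulum folding, 0 were called and the median difference was 0.01.

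With day 3 replicate 1 left out, the comparison of day 6 with day 3 called 33 genes in place of 0, with 31 lower at day 6 (0.157%) and 2 higher. Of these 31, 12 belong to the 30 amino acid response genes, 3 to the transporters, 2 to the synthetases and 2 to the endoplasmic reticulum list. The array left out had the lowest day 3 median in the response, transporter and synthetase lists. Lower day 6 values in those lists therefore follow in part from which array was removed. INHBE was then -2.40, CHAC1 -1.74, SESN2 -1.48, CEBPB -1.30, ATF5 -1.20, CTH -1.12, PSAT1 -1.06 and ASNS -1.05, each a log2 difference. INHBE is not on the amino acid response list, whose median was -0.47. The genes higher at day 6 were GMPR, a GMP reductase (0.47), and EIF5, a translation initiation factor (0.51), named after their values were seen. Leaving out any other single array of these 6 gave 0 calls. So whether a decline is seen rests on this 1 array, which had 21 genes at least 2-fold below both other day 3 arrays, against 1 in replicate 2 and 9 in replicate 3. Genes at least 2-fold above both others numbered 1, 3 and 5 in replicates 1, 2 and 3. The lowest correlation of replicate 1 with its group over all genes was 0.996, the same as for replicate 3. The cause of the difference of replicate 1 was not tested.

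Genes of cholesterol and fatty acid synthesis gave calls above day 1 both at day 3 and at day 6, in comparisons that share the day 1 arrays. Of 19 measured genes of cholesterol synthesis and uptake, 0 were called between day 6 and day 3, 18 had positive differences and 1 a negative one, with a median of 0.13. Against day 1, 11 were higher at day 3 (median 0.49, beside 0.379% of all genes called higher) and 11 at day 6 (median 0.69, beside 0.238%). Per array, the median member stood at 0.475, 0.468 and 0.554 above the day 1 mean at day 3 and at 0.618, 0.567 and 0.578 at day 6. Day 3 replicate 1, which stood apart in the amino acid genes, was level with the other arrays here.

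INSIG1, which holds SREBP back in the endoplasmic reticulum and is itself a target, had 9.55, 9.45 and 9.23 at day 1, 10.83, 10.95 and 10.82 at day 3 and 10.99, 10.81 and 10.78 at day 6. The arrays of days 3 and 6 overlapped and all lay above those of day 1, with a difference of -0.01 ± 0.12 (95% interval -0.26 to 0.25). The gene's 3 probe sets gave -0.005 to 0.243 for day 6 minus day 3. INSIG1 was 1.45 ± 0.12 above day 1 at day 3 (adjusted p = 2.19e-06) and 1.45 ± 0.12 at day 6 (adjusted p = 2.35e-06) with a 95% interval of 1.19 to 1.71 at day 6. SREBF1, which encodes an SREBP, had 7.57, 7.58 and 7.51 at day 3 and 7.69, 7.67 and 7.71 at day 6. Its day 6 arrays were all above its day 3 arrays by 0.13 ± 0.11 on average, and another probe set gave -0.054.

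HMGCS1, an early enzyme of the mevalonate pathway, had 10.78, 10.79 and 10.66 at day 3 and 11.12, 10.86 and 10.65 at day 6, a difference of 0.13 ± 0.12 with overlap, and 0.473 by its other probe set. FDPS, which makes farnesyl diphosphate, had 11.60, 11.98 and 11.89 at day 3 and 11.90, 12 and 11.92 at day 6, a difference of 0.12 ± 0.12. DHCR7, the last step to cholesterol, had 8.0, 7.97 and 8.09 at day 3 and 8.15, 8.20 and 8.24 at day 6. These groups did not overlap, at a difference of 0.18 ± 0.15 that was not called. OLMALINC, a noncoding RNA, had 5.70, 6.57 and 6.48 at day 3 and 6.24, 5.89 and 6.08 at day 6, all above its 3.88 to 4.06 of day 1, and was 2.26 ± 0.27 and 2.08 ± 0.27 above day 1 (adjusted p = 0.00013 and 0.000411).

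Among 13 genes of fatty acid synthesis 0 were called, with 8 positive and 5 negative differences and a median of 0.05. Of the 13, 4 were higher than day 1 at each of days 3 and 6, beside 0.379% and 0.238% of all genes. SCD, the stearoyl-CoA desaturase, had 11.71, 11.82 and 11.73 at day 3 and 11.86, 11.82 and 11.77 at day 6, a difference of 0.06 ± 0.11 with overlap. The 4 probe sets of SCD gave 0.062 to 0.28. FASN, the fatty acid synthase, had 8.33, 8.50 and 8.68 at day 3 and 8.79, 8.71 and 9.09 at day 6. All its day 6 arrays were above day 3, by 0.36 ± 0.13, and it was not called (adjusted p = 0.999); another probe set gave 0.028. LPIN1, a phosphatidate phosphatase of lipid synthesis, had 6.11, 6.57 and 6.20 at day 3 and 6.15, 5.90 and 6.13 at day 6, a difference of -0.23 ± 0.13 with overlap.

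**Figure D3:**
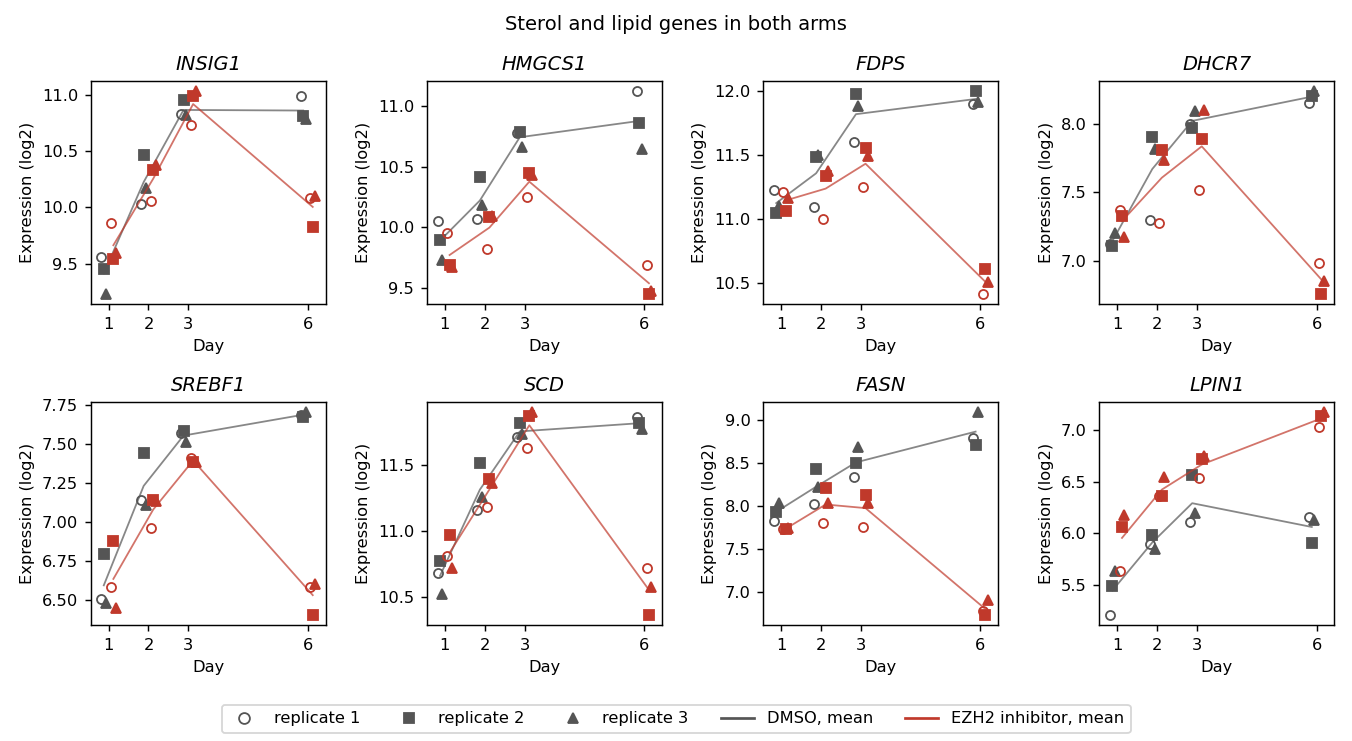
Log2 expression of 8 sterol and lipid genes in each array against day, grey for DMSO and red for the EZH2 inhibitor, with open circles, squares and triangles for replicates 1, 2 and 3 and lines through the group means. In DMSO the day 6 minus day 3 differences of these genes run from -0.23 for LPIN1 to 0.36 for FASN and none was called, while with the inhibitor 7 of the 8 genes fell from day 3 to day 6 and LPIN1 rose.

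The inhibitor arm, whose arrays are separate from those of the DMSO arm, was compared over the same interval. Between day 3 and day 6 with the inhibitor, 2001 genes rose (10.1%) and 2089 fell (10.6%), or 2370 and 1667 after centring on the median gene. The change differed between the arms in 2474 genes (12.5%), 1182 with the inhibitor's change above that of DMSO and 1292 below it, or 1430 and 984 after that centring, and 3715 in all when replicate number was blocked. Of the cholesterol genes 11 of 19 fell with the inhibitor (median -0.43), and 10 differed between the arms. INSIG1 fell by 0.91 ± 0.12 with the inhibitor, from 10.73, 10.99 and 11.03 to 10.09, 9.83 and 10.10, and the difference between the arms was -0.91 ± 0.18 (adjusted p = 0.0012). SCD fell by 1.24 ± 0.11 there (difference between the arms -1.31 ± 0.15, adjusted p = 6.14e-06). FASN fell by 1.17 ± 0.13 (difference between the arms -1.52 ± 0.18, adjusted p = 6.58e-06). LPIN1 rose by 0.45 ± 0.13 with the inhibitor (difference between the arms 0.68 ± 0.19, adjusted p = 0.0196).

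The amino acid response list was low in the inhibitor arm at both days. Its median member stood at -0.058, -0.048 and -0.116 from the DMSO day 1 mean at day 3, and at -0.101, -0.18 and -0.191 at day 6. These inhibitor arrays were below day 3 replicates 2 and 3 and all day 6 arrays of DMSO, and near DMSO day 3 replicate 1. Of the 30 genes, 2 differed between the arms in their change, beside 12.5% of all genes. Both had a lower change under the inhibitor, while the list's median difference between the arms was 0.079 (all genes -0.05). Outside the list, CCPG1 had a difference between the arms of 0.94 ± 0.27 (adjusted p = 0.0221). SESN2, of the list, was not called (1.44 ± 0.51, adjusted p = 0.0711).

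Of the NF-kB response and cytokine genes, CCL4 was the one called against day 1 at each of days 3 and 6, with wide spread between replicates. CCL4, a chemokine made by activated B cells, had 6.15, 6.21 and 6.09 at day 1, 6.89, 9.07 and 8.19 at day 3 and 9.34, 7.57 and 8.19 at day 6. Replicate 1 was the lowest at day 3 and the highest at day 6, and the difference of 0.32 ± 0.40 has a 95% interval of -0.51 to 1.14. CCL4 was 1.90 ± 0.40 above day 1 at day 3 (adjusted p = 0.0345, up to 0.323 with an array left out) and 2.22 ± 0.40 at day 6 (adjusted p = 0.0106).

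EGR1, an immediate early transcription factor chosen after its values were seen, had 7.06, 7.12 and 6.46 at day 1, 8.0, 8.99 and 9.90 at day 3 and 9.91, 8.71 and 9.09 at day 6. All arrays of days 3 and 6 were above day 1, yet the gene was not called in any of these 3 comparisons (adjusted p = 0.16 for day 3 and 0.117 for day 6 against day 1). FOS, its AP-1 counterpart, had 4.41, 6.32 and 5.81 at day 3 and 6.73, 5.34 and 5.56 at day 6. As in CCL4, replicate 1 was lowest at day 3 and highest at day 6. Of 23 immediate early genes 0 were called, with a median difference of 0.03, and of 24 NF-kB response and cytokine genes 0, with a median of 0.004.

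PMAIP1, the BH3-only protein NOXA, had 8.93, 11.32 and 10.93 at day 3 and 10.31, 9.80 and 9.29 at day 6. The day 6 arrays lay between day 3 replicate 1 and the other day 3 arrays, all above day 1 (8.14 to 8.49), with a difference of -0.60 ± 0.38. It was 2.04 ± 0.38 above day 1 at day 3 (adjusted p = 0.0153, up to 0.161 with an array left out) and 1.45 ± 0.38 at day 6 (adjusted p = 0.141). Without day 3 replicate 1 its change from day 3 to day 6 was -1.33. With the inhibitor it rose by 2.33 ± 0.38 over the same interval, and the arms differed by 2.93 ± 0.54 (adjusted p = 0.000674).

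TLR7, a receptor for single-stranded RNA in endosomes, had 5.36, 6.35 and 6.29 at day 3 and 5.95, 5.47 and 5.85 at day 6, all above its 4.15 to 4.57 of day 1. The difference of -0.24 ± 0.27 came with overlap, and another probe set gave -0.002. TLR7 was 1.61 ± 0.27 above day 1 at day 3 (adjusted p = 0.00814, up to 0.103 with an array left out) and 1.37 ± 0.27 at day 6 (adjusted p = 0.0262). With the inhibitor it rose by 1.39 ± 0.27 between days 3 and 6 (difference between the arms 1.63 ± 0.39, adjusted p = 0.00654). L3MBTL4, which encodes an MBT domain protein, had 8.96, 9.56 and 8.95 at day 3 and 9.47, 9.53 and 9.17 at day 6. It stayed above its 7.17 to 7.97 of day 1, by 1.51 ± 0.30 at day 3 (adjusted p = 0.0272, up to 0.238 with an array left out) and 1.74 ± 0.30 at day 6 (adjusted p = 0.00883), although another probe set gave -0.146 at day 3.

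Of the genes named as lower at day 3 than at day 1, some had day 6 values close to day 3 and some lay nearer to day 1. They were picked for low day 3 values, so some return toward day 1 can come from the choice alone. Whether they fall into separate kinds was not tested. NQO1, a quinone reductase of the oxidative stress response, had 8.83, 8.92 and 8.97 at day 3 and 8.77, 9.18 and 9.19 at day 6, below every array of day 1 (9.47 to 10.04). The difference was 0.14 ± 0.18 with overlap. PLPP5, a phospholipid phosphatase, had 8.64, 8.59 and 8.63 at day 3 and 8.60, 8.62 and 8.62 at day 6, with a difference of -0.01 ± 0.08. It was -0.41 ± 0.08 from day 1 at day 3 (adjusted p = 0.0294, up to 0.188 with an array left out) and -0.42 ± 0.08 at day 6 (adjusted p = 0.0258). TAF9B, a subunit related to the general factor TFIID, had 7.39, 7.23 and 7.18 at day 3 and 7.43, 7.22 and 7.22 at day 6, a difference of 0.02 ± 0.13. Its 5 probe sets gave -0.09 to 0.397 for day 6 minus day 3, and with the probe sets averaged the call at day 3 against day 1 was lost (adjusted p = 0.573).

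CDC20, an activator of the anaphase-promoting complex, had 11.86, 11.70 and 11.78 at day 1, 11.48, 11.13 and 11.29 at day 3 and 11.54, 11.54 and 11.53 at day 6. The day 6 arrays were level with each other, above all of day 3 and below all of day 1, with a difference of 0.24 ± 0.08 that was not called after adjustment (adjusted p = 0.999). ZNRD2, a zinc ribbon protein, had 8.83, 8.66 and 8.66 at day 3 and 8.90, 9.05 and 8.87 at day 6. Here too day 6 lay above all of day 3, by 0.22 ± 0.07, and the difference from day 1 went from -0.37 ± 0.07 at day 3 (adjusted p = 0.019, up to 0.168 with an array left out) to -0.15 ± 0.07 at day 6 (adjusted p = 0.591). CA8, a carbonic anhydrase relative without that activity, had 3.70, 3.90 and 3.93 at day 3 and 4.23, 3.94 and 4.27 at day 6, a dim signal whose other probe sets gave differences from -0.253 upward.

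The remaining genes of that kind overlapped or moved little. AIFM2, a ferroptosis suppressor, had a difference of 0.12 ± 0.08 with day 6 above day 3 in every array, and CDCA3, a mitotic gene, 0.08 ± 0.09 with overlap. ITGAL, the alpha chain of the integrin LFA-1, had 4.80, 4.95 and 4.87 at day 3 and 5.33, 4.55 and 5.04 at day 6, a wider spread at day 6 and a difference of 0.10 ± 0.15. The other ITGAL probe set went the opposite way in both comparisons, with -0.465 for day 6 minus day 3 and 0.322 for day 3 minus day 1. PPDPF had a difference of 0.03 ± 0.08. KLHL6, a germinal centre gene chosen after its values were seen, was higher at day 3 than at day 1 by 0.42 ± 0.09 (adjusted p = 0.0441). It had 8.32, 8.74 and 8.55 at day 3 and 8.26, 8.09 and 8.22 at day 6, within 0.08 ± 0.09 of day 1. Its day 6 arrays lay below all of day 3, by -0.34 ± 0.09, and this was not called.

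**Figure D4:**
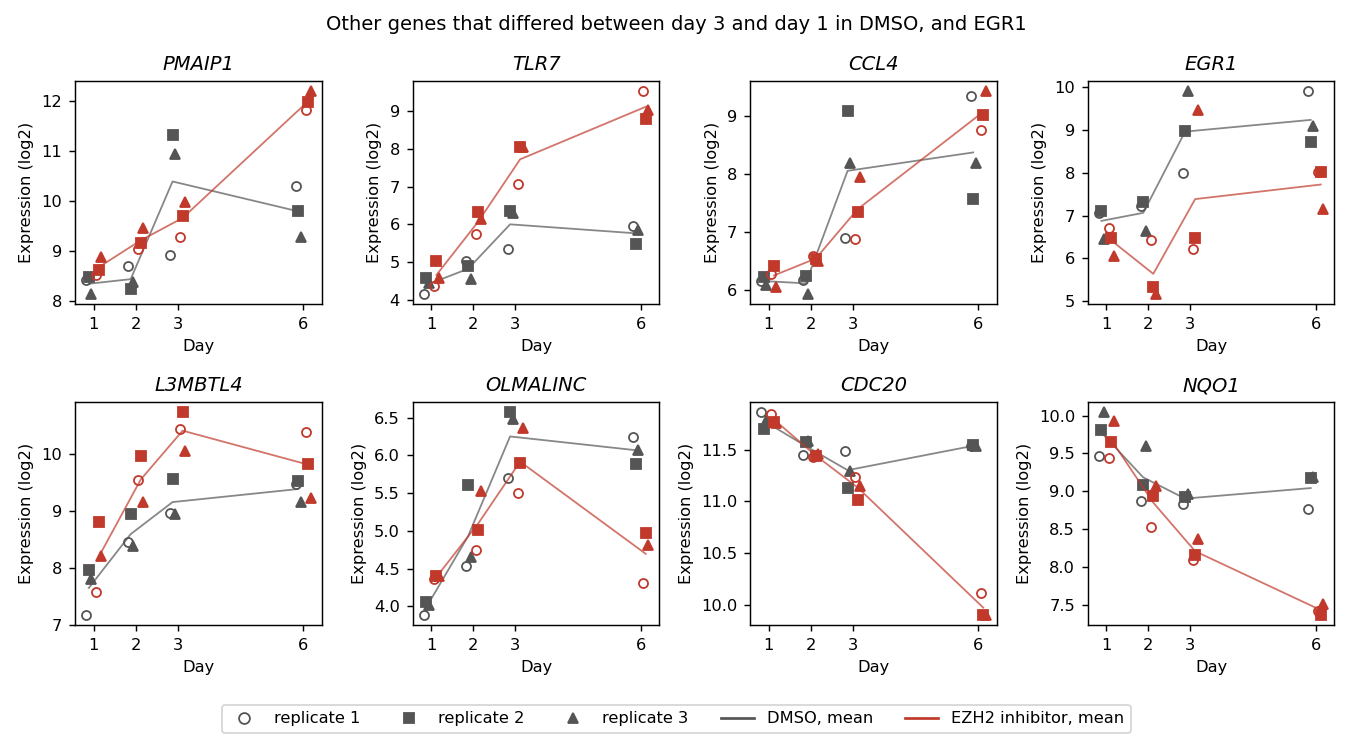
Log2 expression of 7 genes called between DMSO day 3 and day 1 and of EGR1, in each array against day, grey for DMSO and red for the EZH2 inhibitor, with open circles, squares and triangles for replicates 1, 2 and 3 and lines through the group means. In DMSO the arrays of days 3 and 6 overlap in 7 panels, and in CDC20 the day 6 arrays lie above those of day 3.

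Genes of ribosome biogenesis and other MYC targets gave 0 calls among 30 measured. Of their differences 28 were positive and 2 negative, beside 55.2% positive over all genes, with a median of 0.11. In 9 of the 30 genes all day 6 arrays lay above day 3, beside 5.25% of all genes. The median member stood at -0.028, -0.157 and -0.143 from the day 1 mean at day 3 and at -0.012, -0.019 and -0.051 at day 6. Day 3 replicate 1 was thus near the day 6 arrays, and replicates 2 and 3 were lower. NOP16, a nucleolar assembly factor, had 11.27, 10.98 and 11.11 at day 3 and 11.31, 11.38 and 11.31 at day 6. PES1, needed for the large ribosomal subunit, had 8.67, 8.64 and 8.71 at day 3 and 8.85, 8.85 and 8.97 at day 6. These differences of 0.21 ± 0.07 and 0.22 ± 0.07 had no overlap between the days. MYC itself differed by 0.10 ± 0.12 in DMSO, and with the inhibitor it fell by 0.53 ± 0.12. With the inhibitor 21 of the 30 genes fell (10.6% of all genes), and 21 differed between the arms (12.5% of all genes).

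Of 42 interferon-stimulated genes measured, 0 were called, 35 differences were negative and the median was -0.07. From the day 1 mean, the median member was at 0.292, 0.501 and 0.68 at day 3 and at 0.085, 0.367 and 0.634 at day 6. It was lowest in replicate 1 and highest in replicate 3 at both days. The day 1 arrays had the same order and a wide spread, at -0.301, 0.014 and 0.297. Replicate 1 of day 3 and of day 6 lay within that day 1 range. In each of the 3 numbered pairs the day 6 median was below that of day 3. IFIT1, an RNA-binding effector, had 8.45, 9.03 and 9.35 at day 3 and 8.34, 8.89 and 9.36 at day 6, a difference of -0.08 ± 0.40. IFI44L, of the same response, had 8.30, 8.68 and 8.36 at day 3 and 7.87, 8.33 and 8.36 at day 6. In both genes the arrays of the days overlapped.

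Cell cycle genes fell with the inhibitor and gave 0 calls in DMSO. In DMSO the 39 G1/S and replication genes had differences of -0.18 to 0.22 and the 51 G2/M genes of -0.17 to 0.27, with medians of 0.03 in each list. With the inhibitor 39 of the 39 and 49 of the 51 fell, beside 10.6% of all genes, with medians of -0.99 and -0.95. CDK1, the kinase of mitotic entry, had 11.46, 11.44 and 11.45 at day 3 and 11.42, 11.40 and 11.38 at day 6 in DMSO. MCM2, of the replicative helicase, had 10.32, 10.22 and 10.33 at day 3 and 10.37, 10.26 and 10.23 at day 6. The 95% intervals were -0.25 to 0.16 for CDK1 and -0.24 to 0.23 for MCM2.

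Further lists gave 0 calls in DMSO (median over all genes 0.013). The medians were 0.04 over 18 genes for glycolysis, 0.02 over 30 for oxidative phosphorylation, 0.11 over 18 for heat shock chaperones, 0.01 over 20 for p53 targets, 0.004 over 26 for lysosome and autophagy, and 0.02 over 24 for MHC genes. The hypoxia response had a median of -0.09 over 22 genes and the quiescence and glucose sensing list -0.10 over 23, with 16 negative. Within the quiescence list CCNG2, a cyclin that restrains the cycle, was 0.51 higher at day 3 than at day 1 (adjusted p = 0.015). It had 10.07, 10.46 and 10.35 at day 3 and 10.24, 9.91 and 10.02 at day 6, overlapping at a difference of -0.24 ± 0.09. With the inhibitor CCNG2 rose by 0.47.

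**Figure D5:**
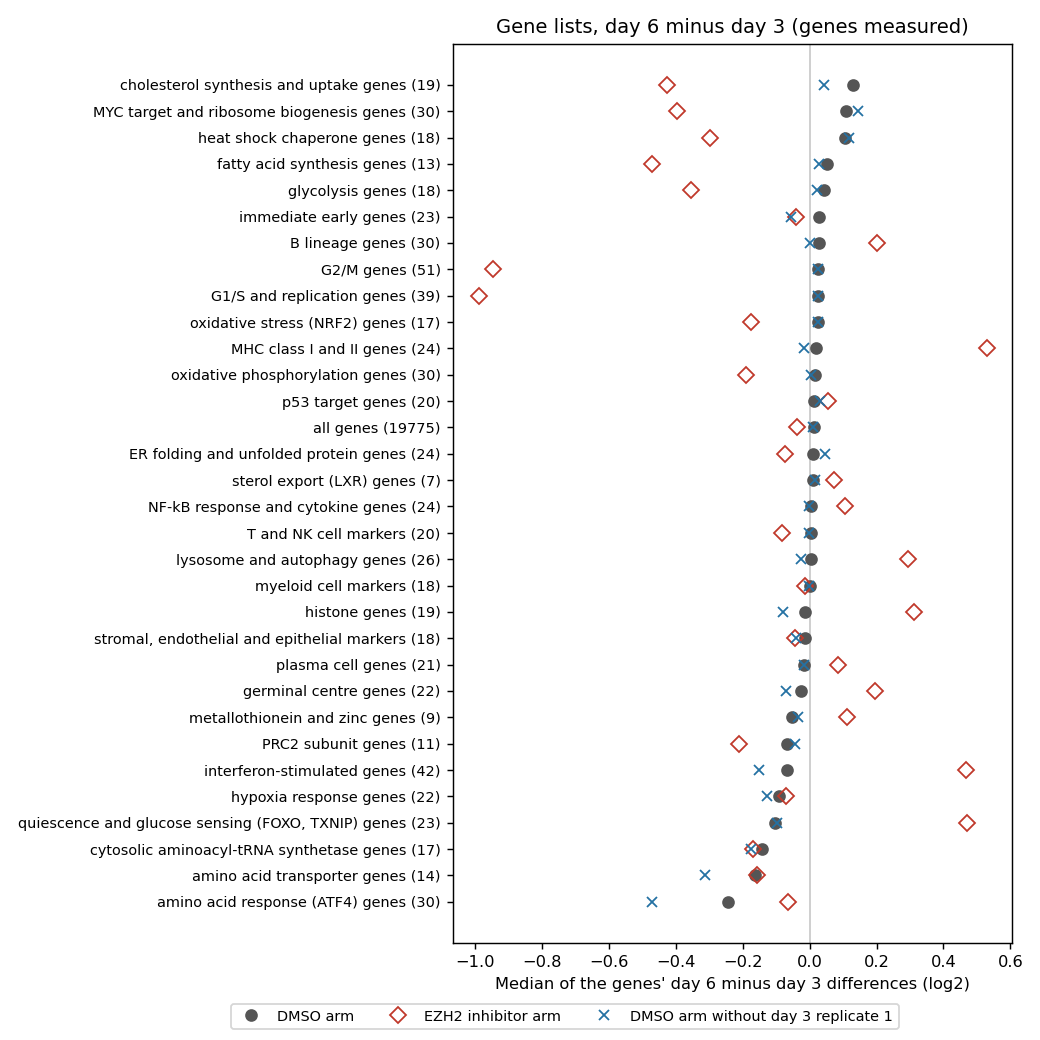
Median log2 difference between day 6 and day 3 over the measured genes of each list (number in brackets) and over all genes, for the DMSO arm (grey points), the EZH2 inhibitor arm (red diamonds) and the DMSO arm without day 3 replicate 1 (blue crosses). The DMSO medians run from -0.25 for the amino acid response to 0.13 for the cholesterol genes, and the inhibitor medians reach -0.99 for the G1/S genes.

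EZH2, the target of the inhibitor and the catalytic subunit of PRC2, had 10.29, 10.41 and 10.16 at day 3 and 10.31, 10.18 and 10.13 at day 6 in DMSO, a difference of -0.08 ± 0.12. The arrays overlapped, and a level of messenger RNA does not report the activity of the mutant enzyme. With the inhibitor EZH2 fell by 0.43 ± 0.12, and the difference between the arms was not called (-0.35 ± 0.16, adjusted p = 0.187). EED, which reads the mark, had all day 6 arrays below day 3, at -0.07 ± 0.06, and so had SUZ12, at -0.07 ± 0.06. These were 2 of 11 PRC2 genes, beside 3.46% of all genes, and the median size of difference over all genes was also 0.07. Of 11 PRC2 genes 0 were called in DMSO, with a median of -0.07.

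The line's B lineage markers were present and differed little between the days. The 6 measured B lineage markers had means from 8.57 for CD22 to 12.69 for MS4A1 over the 6 arrays, and differences from -0.02 to 0.05. The 7 myeloid markers had means of 3.52 to 5.05 and differences of -0.28 to 0.16. The summed myeloid level ran from 28.2 to 28.7 at day 3 and from 27.5 to 28.9 at day 6. T and NK cell markers ran from 3.68 for CD2 to 11.01 for CD3G, and stromal, endothelial and epithelial markers from 2.80 for EPCAM to 12.82 for DCN, so that CD3G and DCN were bright in this B-cell line at both days (differences -0.15 ± 0.22 and -0.03 ± 0.13). Their sums ran from 35.1 to 35.6 and from 46.3 to 46.7 at day 3, and from 35.3 to 36.2 and from 46.0 to 46.6 at day 6. Bulk RNA cannot tell fewer expressing cells from less RNA in each.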

How the data were processed

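Total RNA was hybridised to Affymetrix U133 Plus 2 arrays. Per the submitters' processing notes, the authors made the deposited values with RMA in R 2.10.1; the log base is not given there, and the range of 1.72 to 14.33 fits log2 expression, as the deposited table was read. RMA gives no detection calls and shrinks differences of dim genes, and the number of arrays limits precision. Of 54613 probe sets, 41091 had 1 gene symbol in the platform's table, 1801 several and 11721 none listed. Symbols were updated by Entrez ID for 41037.

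Differences came from limma 3.58.1 in R 4.3.3 (lmFit with 8 group coefficients over 24 arrays, eBayes, 16 residual and 5.22 prior degrees of freedom), which was tested on simulated data. All adjusted p are limma's, adjusted by Benjamini and Hochberg over 19775 genes, because 3 arrays a group limit any exact permutation p to 0.1 or more. The difference between the arms is the interaction contrast. Intervals are 95% and, like each SE, use the spread within groups pooled over the 24 arrays, not that of the arrays compared alone.

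Equal replicate numbers at days 3 and 6 had correlated deviations (0.26, 0.13 and 0.38), so fits with the number as a block were alternatives, with other scalings, probe set choices, array weights, smaller fits and arrays left out. Named genes were EZH2 and the 10 highest and 10 lowest genes called between day 3 and day 1; the rule for genes called between day 6 and day 3 named none. A further 55 genes, and list members used as examples, were chosen after their values were seen. The members and the 31 gene lists were chosen with earlier results of these data known. Members without a probe set of a single symbol are not analysed here.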

Additional observations from a re-analysis of the deposited data

Results flagged for a closer look

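The change from day 3 to day 6 differed between the inhibitor and the DMSO arm in 2474 genes by limma's interaction contrast, while the DMSO arm alone gave 0 calls (smallest adjusted p = 0.712). In the DMSO arm 882 genes had an unadjusted limma p under 0.05, where 989 are expected if no gene changed. Each value here is the inhibitor's log2 change minus that of DMSO. Among the genes named from DMSO day 3 against day 1, and counting only those called between the arms, the difference was above 0 for PMAIP1 (2.93), TLR7 (1.63) and PPDPF (0.5). It was below 0 for INSIG1 (-0.91), NQO1 (-0.91), CDC20 (-1.4), CDCA3 (-1.05), AIFM2 (-0.62), ZNRD2 (-0.5) and PLPP5 (-0.41).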

How the results depend on the processing

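The count between DMSO day 6 and day 3 was 0 under all alternatives run except 2: it was 23, all lower at day 6, without all arrays numbered 1, and 33 without DMSO day 3 replicate 1, the upper end of a leave-one-out range of 0 to 33. With the replicate number as a block, over all 24 arrays or within the 6 arrays compared, it was 0. The block moved the counts against day 1 to 271 at day 3 and 199 at day 6 and that between the arms to 3715, and turned no other count by more than 1.5 times. Main counts were 90 for day 3 and 57 for day 6 against day 1, 4090 within the inhibitor arm and 2474 between the arms. For day 3 against day 1 the count was 21 in a fit of the 12 DMSO arrays, 214 with array weights, 4 and 7 without the arrays numbered 2 and 3, and 13 to 231 with 1 array left out. For day 6 against day 1 these were 34, 92, 7 and 7, and 27 without the arrays numbered 1, with 23 to 41 when 1 array was left out. Without the arrays numbered 1 and 2 the inhibitor arm gave 2720 and 2119, and the difference between the arms gave 1457, 601 and 1632 without numbers 1, 2 and 3. Over all named genes and alternatives, a difference between day 6 and day 3 passed the threshold 32 times, each without replicate 1 of day 3 or without all arrays numbered 1, and moved by more than the spread between replicates 11 times. Among the calls of named genes at day 3 against day 1, 153 were lost over the alternatives. No direction of a called gene turned. The alternatives that leave out day 1 arrays or inhibitor arrays were chosen after seeing the data. Why replicate 1 of day 3 differed was not tested.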

Other observations

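Promoter letters were counted for other lists as well, without a test. ACGTG, part of the hypoxia response element, was found in 13 of 20 genes of the hypoxia list (65%) and 12 of 18 of the glycolysis list (66.7%). The share was 24.9% of all genes with a promoter sequence. TCACNCCAC, a form of the sterol element chosen after the data were seen, was found in 1 of 18 cholesterol genes (5.56%), SREBF2. It was also found in 1 of 13 fatty acid genes (7.69%), beside 1.39% of all genes with a promoter sequence.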
